A study of Mus musculus with 6 samples.

Results

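The genes described here encode collagen chains and the proteins that modify, fold, trim and crosslink collagen. They were chosen by a pattern of gene symbols: every collagen chain gene, the lysyl oxidases, the lysyl and prolyl hydroxylases, and a few named partners such as the collagen chaperone Serpinh1 and the procollagen enhancers Pcolce and Pcolce2. Of the 9490 genes named by a row with 1 gene symbol in the deposited table, 43 met this rule, each by 1 array row. They are 23 collagen chains and 20 enzymes, chaperones and enhancers. Fkbp10, Adamts2, Col2a1 and other chains named by no row of their own were not analysed here, nor was Loxl2, whose row carries a second gene symbol.

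Expression was measured on 6 single-colour whole-transcript arrays, with total RNA of cancer stem-like cells that were cultured from the prostate of the TRAMP mouse. In this strain the prostate epithelium expresses viral T antigens under the probasin promoter. The TPIN group held 3 samples from mice with intraepithelial neoplasia at an age of 10 to 11 weeks. The TNE group held 3 samples of cells from mice with neuroendocrine tumours, whose age the labels do not give. Both groups carried the transgene and were grown without serum, with EGF and FGF2, and no sample came from a mouse without the transgene. Whether each sample of a group had its own mouse or culture is not labelled, so p-values measure only the spread between samples, part of which may be technical.

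A collagen molecule is a rope of 3 chains wound together. In the endoplasmic reticulum, prolyl and lysyl hydroxylases modify the new chains, and the chaperone encoded by Serpinh1 holds the folded rope together on its way out. Outside the cell, proteinases trim the ends of procollagen, the trimmed molecules assemble into fibrils or networks, and lysyl oxidases crosslink them. In tissues, fibroblasts and smooth muscle cells make most fibrillar collagen, whereas epithelial and endothelial cells also make basement membrane collagen.

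Levels are log2 expression values as deposited. Arrays are named by group and replicate, and array values are given in the order of replicates 1, 2 and 3. A difference is the TNE mean minus the TPIN mean on the log2 scale, with its standard error (SE) from limma, and p-values are limma's, adjusted over all 9490 genes. A gene is called lower or higher in TNE where its adjusted p was below 0.05. No detection call comes with the table, so low values may be near background, where RMA narrows differences. Levels of different genes come from different probes and are not compared with each other.

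The data do not include a start site or promoter readout, and the promoter sequences are shown as context for 4 genes with large or opposed differences. They are the alpha-2 chain of collagen I (Col1a2), the chaperone Serpinh1, and the enhancers Pcolce and Pcolce2, which differed in opposite directions between the groups. Each run is the 250 bases before the start in RefSeq's mouse assembly GRCm38.p6, on the gene's own strand. Capitals mark the letters CCAAT (the CCAAT box), GGGCGG (the GC box) and TATAAA (the TATA box) on either strand.
Col1a2, plus strand, chr6:4505368-4505617: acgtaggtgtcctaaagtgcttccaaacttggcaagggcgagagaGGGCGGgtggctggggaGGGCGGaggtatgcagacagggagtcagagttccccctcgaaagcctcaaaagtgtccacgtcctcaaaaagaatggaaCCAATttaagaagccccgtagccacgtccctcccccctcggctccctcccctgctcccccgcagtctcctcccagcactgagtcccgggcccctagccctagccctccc
Serpinh1, minus strand, chr7:99353240-99353489: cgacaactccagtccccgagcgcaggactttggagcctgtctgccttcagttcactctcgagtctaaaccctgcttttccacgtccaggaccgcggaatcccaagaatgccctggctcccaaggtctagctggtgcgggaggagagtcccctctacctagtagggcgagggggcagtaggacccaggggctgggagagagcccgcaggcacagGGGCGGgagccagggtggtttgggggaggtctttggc
Pcolce, minus strand, chr5:137611405-137611654: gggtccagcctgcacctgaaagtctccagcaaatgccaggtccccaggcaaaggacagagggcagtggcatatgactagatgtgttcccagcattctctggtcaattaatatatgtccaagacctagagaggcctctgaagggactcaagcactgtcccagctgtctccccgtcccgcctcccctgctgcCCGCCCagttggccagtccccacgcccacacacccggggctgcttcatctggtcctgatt
Pcolce2, plus strand, chr9:95637378-95637627: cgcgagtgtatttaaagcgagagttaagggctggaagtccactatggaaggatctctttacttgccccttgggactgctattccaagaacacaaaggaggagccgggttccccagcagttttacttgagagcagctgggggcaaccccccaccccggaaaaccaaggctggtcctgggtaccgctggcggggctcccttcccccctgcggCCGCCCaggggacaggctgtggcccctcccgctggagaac

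The Col1a2 window held 1 CCAAT and 2 GGGCGG matches, and the windows of Serpinh1, Pcolce and Pcolce2 each held 1 GGGCGG match. Pcolce and Pcolce2 had the same counts of these 3 motifs. Over all 17492 protein-coding genes with an entry, 39.5% had CCAAT, 45.8% GGGCGG and 13.7% TATAAA in the same window. Of the 43 genes, 32 had an entry. Among the 18 of these that were lower in TNE, 4 had CCAAT, 10 had GGGCGG and 3 had TATAAA. Among the other 14, 8 had CCAAT, 11 had GGGCGG and 1 had TATAAA.

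Most of the collagen genes and enzymes were lower in TNE. Of the 43, 26 were called lower, 1 (Pcolce2) was called higher and 16 did not pass. Over all genes tested 10.2% were called lower and 10.3% higher. The difference was negative for 41 of the 43 genes and for 50.8% of all genes. The median difference was -1.72 for the 43 genes and -0.02 for all genes. At least 8-fold lower means stood for 13 of the 43, against 2.3% of all genes. The TPIN and TNE arrays did not overlap for 33 of the 43, against 43.8% of all genes. Leaving out any 1 array kept the number lower between 21 and 27 and left Pcolce2 called higher. In bulk RNA, fewer cells of a collagen-making type and less collagen RNA per cell cannot be told apart.

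**Figure D1:**
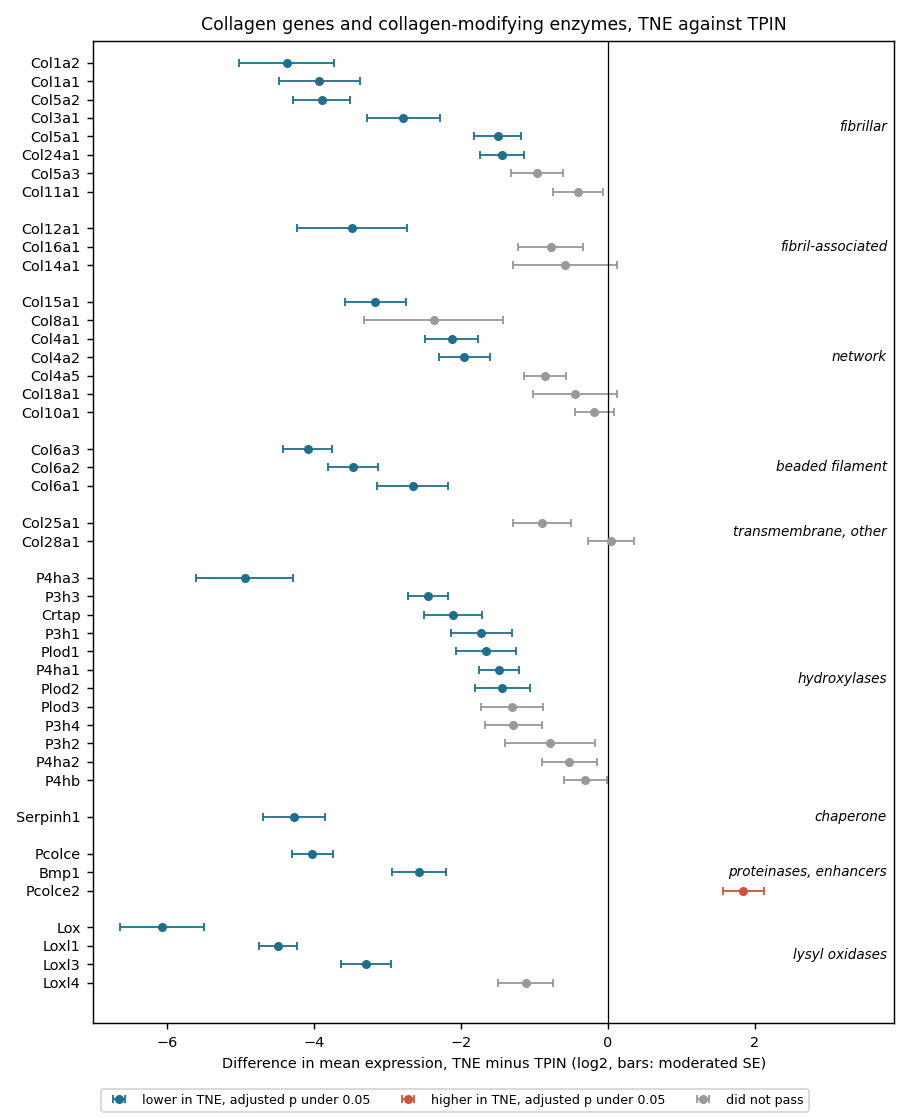
Difference in mean log2 expression, TNE minus TPIN (x axis, bars are the moderated SE), for the 43 genes grouped by role (y axis). The differences run from -6.07 for Lox to 1.84 for Pcolce2, and 26 genes are called lower in TNE, 1 higher and 16 not.

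Cell type markers differed in direction by list. Of 23 fibroblast and smooth muscle markers that are not among the 43 genes, 20 were measured, and 12 of these were lower in TNE, none higher. The mean of the measured markers was 10.66 to 10.86 over the TPIN arrays and 7.64 to 8.18 over the TNE arrays, without overlap. Among the lower markers, Pdgfrb had means of 12.29 in TPIN and 7.89 in TNE, Pdgfra 12.61 and 9.24, and Acta2 12.90 and 8.91. The 8 that did not pass were S100a4, Cnn1, Des, Fap, Cspg4, Fbln1, Twist1 and Rgs5. Of these, Twist1 and Rgs5 had positive differences (0.11 and 0.68). The part of the marker difference in the collagen result was not tested. Of 6 measured neuroendocrine markers out of 17, 4 were higher in TNE, and the list mean was 7.99 to 8.54 in TPIN and 9.29 to 10.89 in TNE. That count was 2 without TPIN replicate 1 or 3 and 1 without TPIN replicate 2. The higher markers were Uchl1, Snap25, Syt1 and Elavl4. Ncam1 did not pass, with a difference of 0.04. Eno2 went the other way, with all TNE arrays below all TPIN arrays, and did not pass (difference -0.79, limma adjusted p = 0.110). Only 2 of 18 epithelial markers (Krt8 and Krt18) and 3 of 17 leukocyte markers had a row, and none of these 5 passed. The leukocyte mean was 7.14 to 7.75 in TPIN and 6.72 to 8.65 in TNE. Means over the epithelial pair were 8.06 to 8.14 in TPIN and 7.47 to 7.70 in TNE, so an epithelial origin could hardly be checked. Of 5 measured endothelial markers out of 12, Eng and Flt1 were lower and Cdh5 was higher in TNE, and the list mean was 7.83 to 8.37 in TPIN and 6.82 to 7.91 in TNE. Without any 1 array other than TNE replicate 3, or with the arrays normalized again, only 1 endothelial marker was lower.

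The fibrillar chains, which build the banded fibrils of connective tissue, were lower in 6 of 8 measured genes: Col1a1, Col1a2, Col3a1, Col5a1, Col5a2 and Col24a1. Collagen I is made of the alpha-1 chain (Col1a1) and the alpha-2 chain (Col1a2). Col1a1 had levels of 11.87, 12.80 and 13.58 in TPIN and 8.24, 8.43 and 9.79 in TNE. Col1a2 had 12.16, 12.65 and 13.75 in TPIN and 7.78, 7.81 and 9.85 in TNE. For both chains all TPIN arrays lay above all TNE arrays, and the highest array of each group was replicate 3. The difference was -3.93 for Col1a1 (SE 0.55, limma adjusted p = 0.00401) and -4.37 for Col1a2 (SE 0.64, limma adjusted p = 0.00464). These correspond to 15.2-fold and 20.7-fold lower levels. The gap between the differences of the 2 chains was 0.44 and was not tested.

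Col3a1, the single chain of collagen III, had levels of 12.11, 11.85 and 13.59 in TPIN and 9.95, 9.19 and 10.06 in TNE. Its difference of -2.78 (SE 0.50, limma adjusted p = 0.00916) corresponds to 6.87-fold. Collagen V starts fibrils and limits their width, and its 3 measured chains differed in size of change. Col5a2 had 10.75, 10.87 and 11.76 in TPIN and 6.96, 6.96 and 7.79 in TNE, 14.8-fold lower (limma adjusted p = 0.00124). Col5a1, which pairs with it and is shown for that reason, had 9.97, 10.27 and 10.90 in TPIN and 9.06, 8.92 and 8.67 in TNE, 2.83-fold lower (limma adjusted p = 0.0171). The gap between these 2 differences was 2.39 on the log2 scale, and no test of the gap was made. Col5a3 had 9.08, 8.72 and 9.92 in TPIN and 8.26, 8.26 and 8.31 in TNE. It did not pass (limma adjusted p = 0.0842), although its groups did not overlap. The call for Col5a1 was lost without TNE replicate 2.

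Col24a1, a minor fibrillar chain, was 2.71-fold lower (limma adjusted p = 0.0151), a call lost without TPIN replicate 2 or TNE replicate 2. Col11a1, which nucleates fibrils in cartilage, had a difference of -0.40 (SE 0.34) and overlapping groups. In all 6 of the fibrillar chains called lower, the highest TPIN array was TPIN replicate 3, which was the highest TPIN array for 35.9% of all genes. TPIN replicate 1 was the lowest of its group in 5 of the 6, and in 29.6% of all genes.

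**Figure D2:**
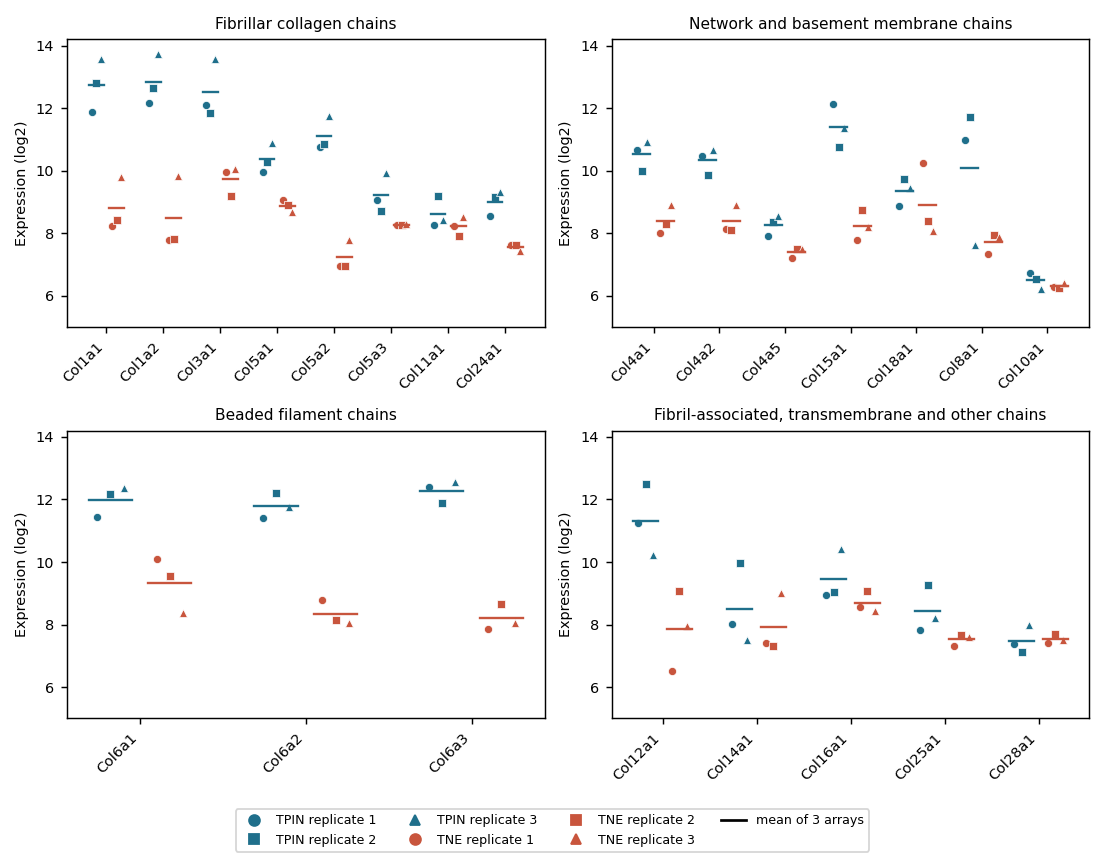
Log2 expression (y axis) of each of the 23 collagen chains on every array, with TPIN in blue and TNE in red, a marker shape per replicate and a line at the mean of 3 arrays. Col6a1, Col6a2 and Col6a3 separate the groups by 1.33 or more at the closest arrays, whereas Col8a1 and Col14a1 have arrays of both groups at like levels.

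Collagen VI forms beaded microfilaments around cells, and its 3 measured chains were all lower in TNE. Col6a3 had 12.41, 11.88 and 12.55 in TPIN and 7.87, 8.66 and 8.05 in TNE. The difference was -4.09 (SE 0.33, limma adjusted p = 0.000615). Col6a2 had 11.41, 12.21 and 11.75 against 8.80, 8.15 and 8.04, 11.0-fold lower (limma adjusted p = 0.00115). Col6a1 had 11.43, 12.19 and 12.38 against 10.10, 9.56 and 8.36, 6.31-fold lower (limma adjusted p = 0.00981). No array of either group crossed into the other for these chains, and each kept its call without any 1 array. The TNE arrays did not share an order: TNE replicate 1 was highest for Col6a1 and Col6a2 and lowest for Col6a3.

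The network and basement membrane chains were lower in 3 of 7 genes. Collagen IV, the sheet-forming collagen of basement membranes, consists mainly of the chains of Col4a1 and Col4a2. Col4a1 had levels of 10.68, 10.00 and 10.91 in TPIN and 8.03, 8.30 and 8.89 in TNE, 4.35-fold lower (difference -2.12, SE 0.36, limma adjusted p = 0.00748). Col4a2 had 10.47, 9.88 and 10.66 in TPIN and 8.14, 8.11 and 8.90 in TNE, 3.87-fold lower (difference -1.95, SE 0.35, limma adjusted p = 0.00889). In both, TPIN replicate 2 was the lowest TPIN array and TNE replicate 3 the highest TNE array. The gap between their differences was 0.17 and was not tested.

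Col4a1 and Col4a2 lie head to head on mouse chromosome 8, and their starts in the RefSeq promoter table are 21 bases apart on opposite strands. The 30 bases around these starts are shown because a single short stretch serves as the start region of both genes. It holds 1 GGGCGG match, in capitals. Unlike the windows above, this match lies between the starts and so downstream of each of them.
Col4a1 and Col4a2, plus strand, chr8:11312801-11312830: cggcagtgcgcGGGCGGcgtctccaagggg
Another 2 pairs of the 43 genes are direct neighbours among protein-coding genes in the same assembly, and in both pairs both genes were lower in TNE. Col3a1 and Col5a2 (differences -2.78 and -3.89) adjoin on chromosome 1, and Col6a2 and Col6a1 (-3.46 and -2.66) on chromosome 10. The 43 genes lie on 17 chromosomes in all.

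Col15a1, a basement membrane collagen bound to underlying fibrils, had 12.12, 10.76 and 11.36 in TPIN and 7.80, 8.74 and 8.22 in TNE. It was 8.95-fold lower (difference -3.16, SE 0.42, limma adjusted p = 0.00328). Its close relative Col18a1, the source of endostatin, did not pass: it had 8.87, 9.74 and 9.45 in TPIN and 10.24, 8.40 and 8.07 in TNE. TNE replicate 1 was above every TPIN array for Col18a1. Col4a5, another collagen IV chain, had 7.91, 8.36 and 8.55 in TPIN and 7.23, 7.51 and 7.51 in TNE (limma adjusted p = 0.0683). Col10a1, the collagen of hypertrophic cartilage, had a difference of -0.18 (SE 0.27).

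Col8a1, a short-chain network collagen whose values were singled out after they were seen, showed the widest spread of the 43 genes within TPIN. It had 10.98 and 11.71 on TPIN replicates 1 and 2 but 7.62 on TPIN replicate 3, within the TNE values of 7.34, 7.96 and 7.90. The difference of -2.37 (SE 0.94) did not pass (limma adjusted p = 0.106), and it passed without TPIN replicate 3 (limma adjusted p = 0.00519).

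Of the fibril-associated chains, which sit on the surface of fibrils, Col12a1 was lower in TNE and Col14a1 and Col16a1 did not pass. Col12a1 had 11.25, 12.50 and 10.22 in TPIN and 6.50, 9.08 and 7.95 in TNE. It was 11.2-fold lower (SE 0.75 on a difference of -3.48, limma adjusted p = 0.0174), a call lost without TPIN replicate 1 or 2. Col14a1 had 8.03, 9.95 and 7.49 against 7.40, 7.32 and 9.01. Its groups overlapped, and without TPIN replicate 2 its difference was 0.15 instead of -0.58. Col16a1 had 8.94, 9.03 and 10.42 against 8.56, 9.06 and 8.43. Neither the transmembrane chain Col25a1 (7.82, 9.27 and 8.20 in TPIN, 7.31, 7.67 and 7.62 in TNE) nor Col28a1 (7.37, 7.11 and 7.97 in TPIN, 7.40, 7.69 and 7.49 in TNE) passed. Col28a1 was the other gene besides Pcolce2 with a positive difference, 0.04 (SE 0.31), and its sign turned when TPIN replicate 1 or 2, or TNE replicate 2, was left out.

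The hydroxylases and their partners in the endoplasmic reticulum were lower in 7 of 12 genes, with a median difference of -1.46 over the 12, beside -1.95 over the 23 chains. Prolyl 4-hydroxylase, which makes the hydroxyproline that keeps the collagen rope stable, joins an alpha subunit (P4ha1, P4ha2 or P4ha3) to the beta subunit P4hb, which is also the general protein disulfide isomerase. P4ha3 had 12.41, 12.24 and 9.77 in TPIN and 6.62, 6.30 and 6.67 in TNE. It was 30.7-fold lower (difference -4.94, SE 0.66, limma adjusted p = 0.00344), and TPIN replicate 3 stood well below the other TPIN arrays but above all TNE arrays. P4ha1 had 11.86, 11.98 and 12.08 in TPIN and 10.15, 10.62 and 10.71 in TNE, 2.79-fold lower (limma adjusted p = 0.0103). P4ha2 did not pass (difference -0.52, SE 0.38), with overlapping groups. P4hb had 12.47, 12.54 and 12.88 in TPIN and 12.59, 12.43 and 11.95 in TNE, a difference of -0.31 (SE 0.29, limma adjusted p = 0.455). The 3 alpha subunits thus had differences of -4.94, -1.48 and -0.52, and differences between them were not tested.

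Prolyl 3-hydroxylation modifies a few prolines per chain, through P3h1 and its partner Crtap among others. P3h3 had 10.94, 10.76 and 10.55 in TPIN and 8.57, 8.11 and 8.23 in TNE, 5.46-fold lower (limma adjusted p = 0.00179). Crtap had 10.73, 10.55 and 11.03 against 9.22, 8.90 and 7.88, 4.31-fold lower (limma adjusted p = 0.0102). Both genes kept their groups apart and kept their calls without any 1 array. P3h1 was 3.30-fold lower (limma adjusted p = 0.0262), a call lost without any 1 array other than TNE replicate 1. P3h4, a scaffold of a lysyl hydroxylase complex, was just short of the threshold (difference -1.29, limma adjusted p = 0.0519) and passed without TNE replicate 1 (0.0370) or with the arrays quantile-normalized again (0.0417). P3h2, which acts mainly on basement membrane collagen, had a difference of -0.79 (SE 0.61) and overlapping groups.

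The lysyl hydroxylases prepare sites for crosslinks and sugars. Plod1 and Plod2 were 3.14-fold and 2.71-fold lower (limma adjusted p = 0.0280 and 0.0335), and Plod3 had a difference of -1.31 (SE 0.42, limma adjusted p = 0.0620). All 3 had the TPIN arrays above the TNE arrays. Plod1 lost its call when any of TPIN replicates 1 and 2 and TNE replicates 2 and 3 was left out, and Plod2 when any array other than TPIN replicate 3 was. Without any 1 of those same 4 arrays named for Plod1, the count of 7 lower genes in this group was 4.

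Serpinh1 encodes HSP47, a chaperone devoted to collagen, and was lower in TNE by 19.3-fold. Its levels were 11.48, 11.98 and 11.27 in TPIN and 6.72, 7.03 and 8.17 in TNE (difference -4.27, SE 0.42, limma adjusted p = 0.00124). As for Col1a1, Col1a2 and Lox, the highest TNE array was TNE replicate 3. That array was the highest TNE array for 16 of the 43 genes and the lowest for 19. Over all genes it was the highest for 29.1% and the lowest for 48.6%.

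Of the 3 measured genes for trimming procollagen outside the cell, 2 were lower in TNE and 1 was higher. Bmp1, the proteinase that removes the C-terminal propeptide, had 12.46, 11.89 and 11.15 in TPIN and 9.40, 9.27 and 9.13 in TNE, 5.94-fold lower (limma adjusted p = 0.00421). Pcolce, which speeds that cut, had 13.02, 13.19 and 12.87 in TPIN and 9.22, 9.17 and 8.63 in TNE. It was 16.2-fold lower (difference -4.02, SE 0.28, limma adjusted p = 0.000378). Its paralogue Pcolce2 went the other way, with 6.09, 6.03 and 6.18 in TPIN and 8.22, 8.02 and 7.60 in TNE. It was 3.59-fold higher in TNE (difference 1.84, SE 0.28, limma adjusted p = 0.00497), and all TNE arrays lay above all TPIN arrays. Pcolce2 was among the dimmer genes of the table, at the 8.94th percentile of mean expression, so its TPIN level may be near background.

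**Figure D3:**
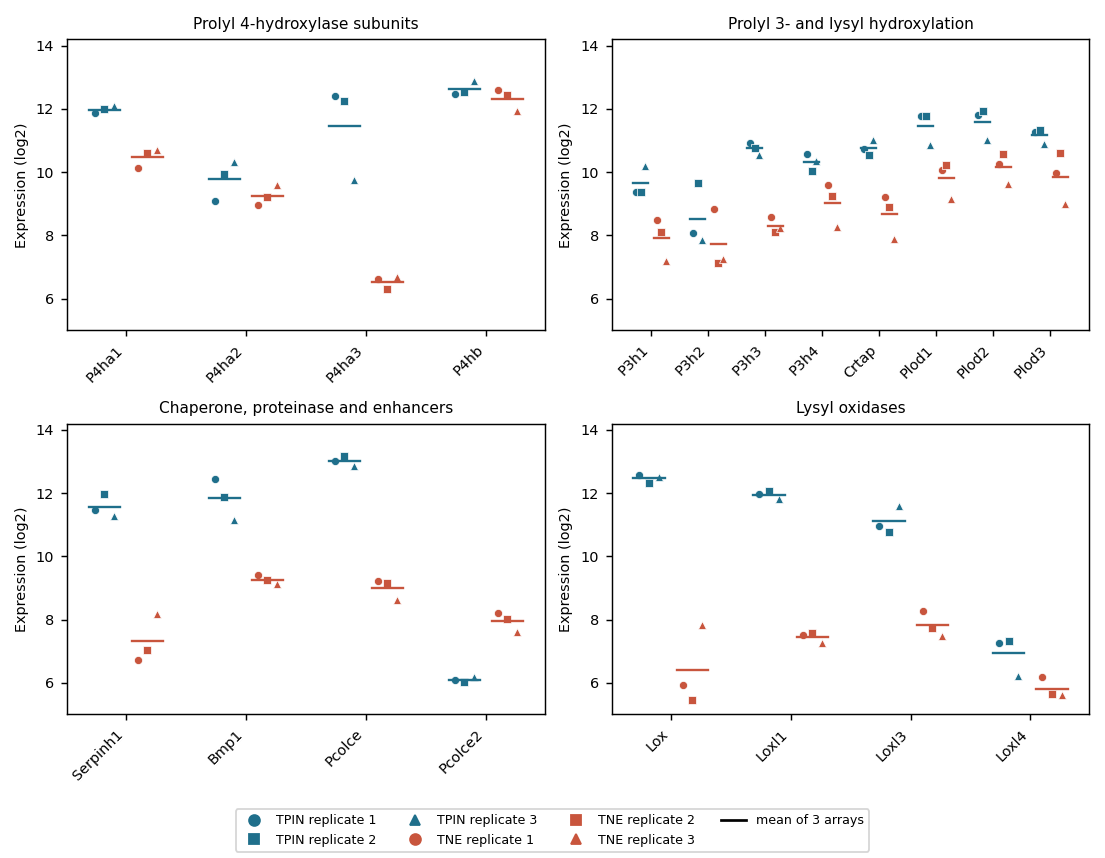
Log2 expression (y axis) of the 20 enzymes, chaperones and enhancers on every array, with TPIN in blue and TNE in red, a marker shape per replicate and a line at the mean of 3 arrays. P4hb overlaps between the groups while P4ha3 does not, and Pcolce and Pcolce2 differ in opposite directions.

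The lysyl oxidases, copper enzymes that start the crosslinks between collagen and elastin molecules, were lower in 3 of 4 genes. Lox had 12.56, 12.33 and 12.52 in TPIN and 5.93, 5.46 and 7.82 in TNE, the largest difference of the 43 genes at -6.07 (SE 0.57, limma adjusted p = 0.00113). Its TPIN values spanned 0.23 and its TNE values 2.35, and its TNE level, like that of other genes with low values, may be near background. Loxl1, needed for elastic fibres, had 11.96, 12.06 and 11.81 in TPIN and 7.51, 7.59 and 7.27 in TNE. It was 22.4-fold lower, with the smallest p of the 43 genes (limma adjusted p = 0.000211) and narrow ranges in both groups (0.25 and 0.32). Loxl3 had 10.96, 10.78 and 11.60 against 8.27, 7.74 and 7.48, 9.76-fold lower (limma adjusted p = 0.00146). Loxl4 had 7.27, 7.31 and 6.23 in TPIN and 6.18, 5.66 and 5.62 in TNE and did not pass (limma adjusted p = 0.0683), but it passed without TPIN replicate 3 (0.0189).

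Other genes of collagen biology were read from the same fit. Of 8 measured collagen receptors 5 were lower in TNE and none higher. Mrc2, which takes up collagen for breakdown, was 11.7-fold lower, the integrin chain Itga11 4.81-fold, the receptor kinase Ddr2 4.03-fold and Itga10 2.03-fold (limma adjusted p = 0.00107 to 0.0334). Leaving out any of TPIN replicates 1 and 2 and TNE replicates 2 and 3 brought the count to 3 and ended the call of Itga10. Of 17 measured fibril partners 11 were lower, among them Bgn (12.5-fold), Thbs1 (14.1-fold) and Dcn (7.04-fold), and none was higher. Of 14 measured genes of collagen degradation 7 were lower and none higher. That list also counts the metalloproteinase inhibitors Timp1, Timp2 and Timp3, of which Timp2 and Timp3 did not pass. Its 4 genes of smallest p were Ctsk, Mmp14, Mmp2 and the inhibitor Timp1. They were 11.1-fold (Mmp14) to 72.4-fold (Timp1) lower.

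Of 19 measured genes of procollagen folding and export 10 were lower and none higher. Creb3l2 and Creb3l1, transcription factors of the secretory pathway, were 9.01-fold and 10.5-fold lower, and Fkbp7 and Fkbp14, prolyl isomerases of the endoplasmic reticulum, 5.14-fold and 5.88-fold. Hsp90b1, a general chaperone of the same compartment that was picked with its values known, had a TPIN mean of 12.69 and a TNE mean of 12.65 (limma adjusted p = 0.899). Leaving out TPIN replicate 2 brought the count of 10 to 4, and leaving out TPIN replicate 1 or TNE replicate 2 brought it to 5. Of 10 other procollagen proteinases and crosslinkers only Furin and Adamts14 were lower, 3.61-fold and 2.27-fold, and no gene was lower without TPIN replicate 1 or 2 and 1 without TNE replicate 2 or 3. Of 4 genes of proline and ascorbate supply Slc2a1 alone was lower (3.26-fold, limma adjusted p = 0.0476), a call that held only without TNE replicate 1 when 1 array was left out.

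**Figure D4:**
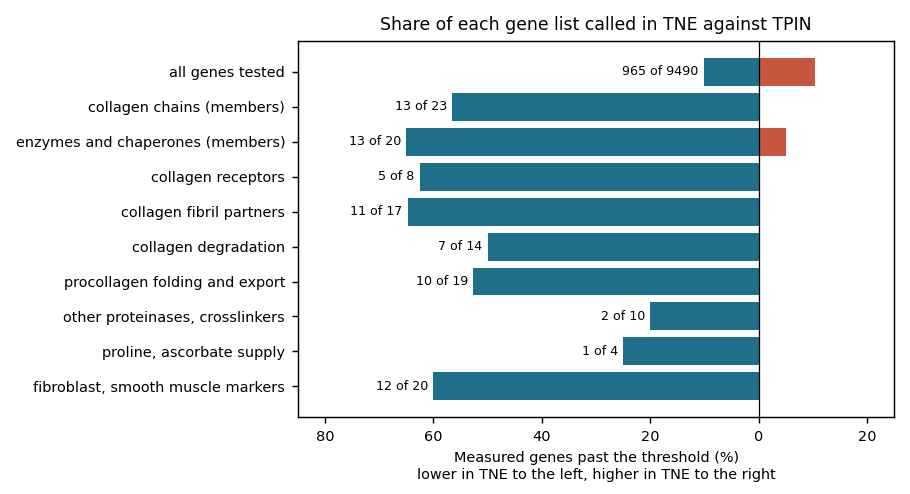
Share of the measured genes of each list (x axis, percent) called lower in TNE (blue, to the left, with counts) or higher (red, to the right). Collagen chains reach 13 of 23 and their enzymes 13 of 20, beside 965 of 9490 for all genes; the fibroblast list shares 3 genes with the fibril partners and 1 with the degradation list.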

How the data were processed

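Per the submitters' processing notes, the deposited log2 expression values were made by the authors with RMA. This method corrects background, aligns the arrays and summarises probes, and it narrows differences near background. For its version and the array's genome build, nothing is given in the sources used here. The 10361 rows of the table are part of the array, and how they were selected is not stated. Of these, 9496 rows have 1 gene symbol in the platform annotation, 374 several and 491 none. The row of highest mean was kept for the 6 genes with more than 1 row. Array medians were 8.82 to 9.10, and correlations between arrays 0.825 to 0.917 within groups and 0.549 to 0.733 between them. The number of arrays limits the precision.

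Groups came from the titles and cell type labels, although the description names intraepithelial neoplasia for all 6 samples. Replicate numbers follow the series' order and pair nothing. No label names a batch; every title ends in a different number that the labels do not explain, so no batch term could be formed. TNE was compared with TPIN in limma (version 3.58.1, R 4.3.3; lmFit, eBayes, two-sided, Benjamini-Hochberg). The rule for the 43 genes reads symbols and no values, but it, the lists and the roles were written with earlier results of these data known. Array values are given for up to 4 genes per role with the smallest p, for opposed genes and for genes that did not pass but had the highest mean of these; of the other lists up to 4 genes are named. Col5a1, Col8a1, Hsp90b1, Timp2, Timp3 and the named fibroblast, smooth muscle and neuroendocrine markers are shown outside this rule, after their values were known. All 43 symbols matched the RefSeq gene table (GRCm38.p6). The TNE against TPIN test was also run on 20 simulations of 9490 genes with 200 changed. It recovered 6.2% of changes of 1 on the log2 scale, 56.1% of changes of 2, 79.4% of changes of 3 and 89.5% of changes of 4. In the data 1941 genes were called, more than the number changed in the simulations. Because the adjustment of p depends on the share of changed genes, recovery in the data may differ.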

Additional observations from a re-analysis of the deposited data

How the results depend on the processing

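Of the 43 genes no call turned direction under any alternative, and the median difference stayed between -1.86 and -1.57 when 1 array was left out. Without 1 array, the number of all genes lower in TNE was 475 to 1285 and higher 357 to 1311, and the number of fibril-associated chains lower 0 to 1, of hydroxylases 4 to 7, of collagen receptors 3 to 4, of folding and export genes 4 to 10, of other proteinases and crosslinkers 0 to 3, and of supply genes 0 to 1.

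With array weights 2021 genes were lower and 2246 higher over the table, and the lower counts were 5 for the network chains and 5 for other proteinases and crosslinkers. With dim genes (mean under the 25th percentile) left out, 1 of the other proteinases was lower, and the count of higher members and of higher enhancers was 0, because Pcolce2 was then not tested. With quantile normalization repeated, 0 supply genes were lower. P3h4 passed with dim genes left out, with quantile or median normalization and with array weights, Plod3 with median centring, and Col4a5, Col8a1 and Loxl4 with array weights. Slc2a1 lost its call with quantile normalization. Signs turned for 3 genes that had not passed: without 1 array, Col14a1 lay between -1.13 and 0.15, Col28a1 between -0.14 and 0.29 and Slc23a2, an ascorbate transporter, between -0.22 and 0.28, and with array weights Slc23a2 was at -0.0037. The cause was not tested. No paired analysis was possible because the labels give no shared replicate numbers.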
